A study of Mus musculus with 8 samples.

Results

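The regions described here are the Rad21 sites of chromosomes 1 to 19 that carried a peak in every one of the 8 deposited peak lists and stayed below a median fold of 20. Peaks of the 8 lists that overlapped by 1 bp or more were merged into 64772 regions, of which 6747 held a peak in all 8 lists. On chromosomes 1 to 19 there were 6691 such regions, and 6510 of them (97.3%) passed the height limit, which is 10.1% of all merged regions. The fold is the peak caller's enrichment at the summit over the expected background of the library. For each region and list the highest fold was taken, and the median over the 8 lists decided membership. The regions were thus chosen by their presence in all lists and selected on the fold itself, and their levels are given below as a description only.

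Rad21 is the kleisin subunit of cohesin, the ring complex that extrudes chromatin loops and holds sister chromatids together. Extruding cohesin is halted at sites bound by CTCF, and at many of these sites Rad21 ChIP-seq shows a sharp peak. Sites held by cohesin in many samples are the usual anchors of loops and the borders of contact domains. CH12F3 cells, a murine B lymphoma line, switch their heavy chain from IgM to IgA upon stimulation, and the study used it to ask how chromatin configuration at Igh bears on the joining of broken switch regions.

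All 8 libraries came from CH12F3 lines with an AID-/- background, so the enzyme that starts class switch recombination was missing from every group, and all cells had received anti-CD40, IL4 and TGF-β for 3 days. FS_Ca lines lacked Cγ3 to Iα but kept full-length Sγ3 and Sα, and PS_Ca lines lacked Sγ3 to Sα except for parts of both switch regions. Both were made in cells whose non-coding IgH allele had lost the stretch from VH to the 3'BCEs. FS_Ia lines lacked Cγ3 to Cα with full-length Sγ3 and Sα, and PS_Ia lines lacked Sγ3 to Sα except for parts of both. Those 2 were made in aInv cells. Each of the 4 genotypes had 2 libraries, and the labels do not say whether these were separate cultures or clones, so the tests measure only the spread between these libraries. Orientation below means Ia against Ca lines, and switch length means PS against FS lines. The Ca and Ia lines also differ in the cells they were made in, and FS_Ca and FS_Ia in the deleted stretch. Orientation cannot be told apart from these differences.

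The lists held 11288 to 47461 peaks, with an expected background of 0.223 to 0.862 fragments; the number of reads is unknown. The sites carried between 17.9% of the peaks of the longest list (PS_Ia replicate 2) and 61.3% of the peaks of the shortest (PS_Ca replicate 2). Despite the height limit these were upper-ranking sites: in the median region, only 7.42% (PS_Ia replicate 2) to 33.3% (PS_Ca replicate 2) of the peaks of a list were taller. The rule itself favours such ranks, because it asks for a peak in every list and takes the highest peak of a region. Moderate therefore describes them only against the 181 regions of all 8 lists that reached a fold of 20. No mm9 sequence or annotation was used, so the regions are given by mm9 position, without genes or motifs. Only the flank of Igh on chromosome 12 is named.

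The height of the sites differed between libraries, and their spread did too. The median fold over the 6510 regions was 9.33 and 10.98 in FS_Ca replicates 1 and 2, 9.28 and 11.4 in FS_Ia replicates 1 and 2, 12.4 and 7.56 in PS_Ca replicates 1 and 2, and 10.5 and 11.8 in PS_Ia replicates 1 and 2. PS_Ca held both the highest and the lowest of the 8 values, so the genotypes overlapped. FS_Ia replicate 2 had the widest spread: its 90th percentile of fold was 3.71 times its 10th, against 2.25 to 2.70 times in the other 7 libraries.

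In fragments, the median summit was 12, 18, 11, 13, 21, 11, 16 and 21 high in the same order of libraries. At such heights, counting error alone, taken as the square root of the height, is 21.8% to 30.2% of the summit of the median region. In 1316 members (20.2%) the fold reached 20 in at least 1 list, while 5194 stayed below it in every list. Of all 6510, 3050 (46.9%) had a median fold under 10 and 693 (10.6%) a median fold of 15 or more.

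**Figure D1:**
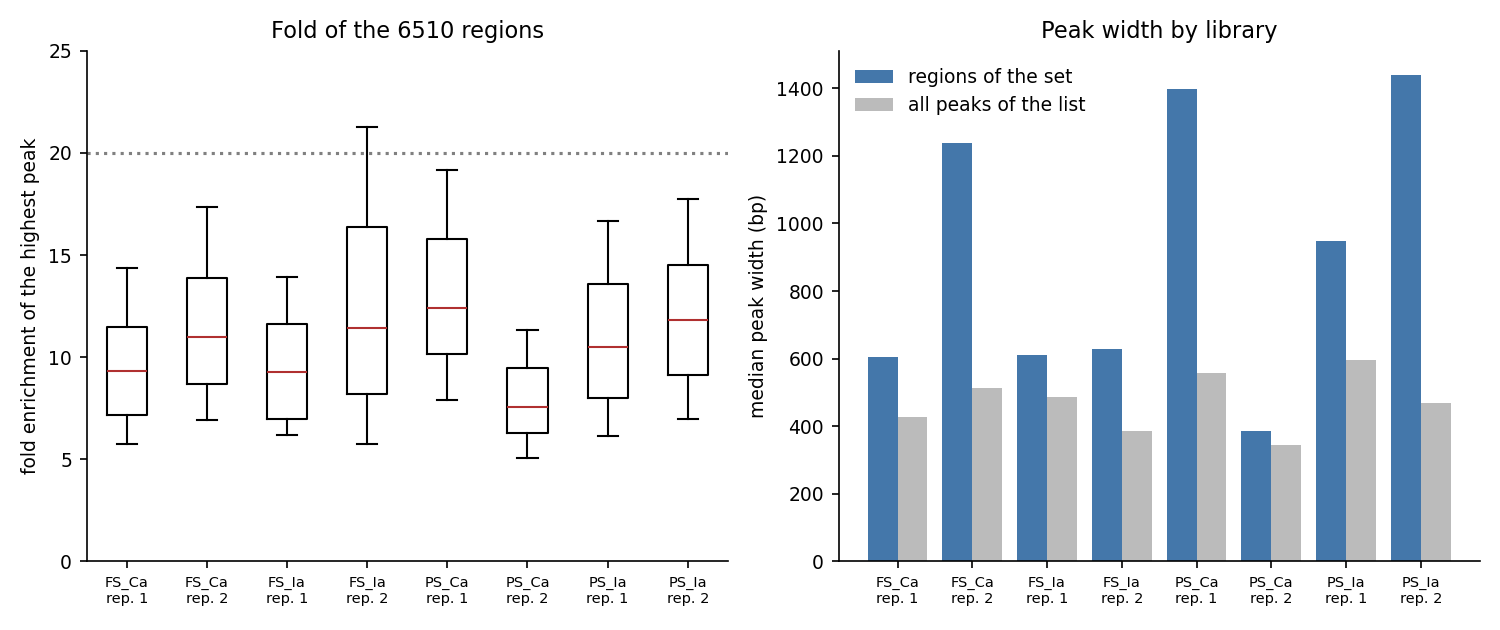
Left, fold enrichment of the highest peak in each of the 6510 regions by library (box, quartiles with the median in red; whiskers, 10th and 90th percentiles; dotted line, the limit of 20 on the median over lists). Right, median width in bp of the widest peak per region beside that of all peaks in the list; the medians on the left run from 7.56 (PS_Ca replicate 2) to 12.4 (PS_Ca replicate 1).

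At the upper edge of the set, the limit cut through a continuous range of heights. The member with the highest median fold, 19.99, lay on chromosome 16 (10871052 to 10875577). Its folds were 18.7 and 20.8 in FS_Ca, 13.9 and 31.9 in FS_Ia, 19.2 and 11.97 in PS_Ca and 25.3 and 25.8 in PS_Ia. The PS_Ia values were above both PS_Ca values, whereas the FS_Ia values lay on either side of FS_Ca.

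The next, on chromosome 9 (50968389 to 50972664), had folds from 12.9 to 28.6. Just outside stood a region on chromosome 12 (78099130 to 78102400) with a median fold of 20.005 and folds from 13.2 to 30.8, followed by one on chromosome 4 (149179685 to 149182724) with a median of 20.02 and folds from 10.8 to 29.9. In single libraries the folds just inside and just outside the limit overlapped.

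The lowest member, with a median fold of 4.47, was on chromosome 9 (69144044 to 69144668). Its folds were 4.30 and 4.04 in FS_Ca, 4.64 and 4.09 in FS_Ia, 5.08 and 5.67 in PS_Ca and 4.93 and 4.30 in PS_Ia, from summits of 4 to 8 fragments. It ranked in the lowest 25 percentiles of every library, and the lowest summits called in the lists were 3 to 5 fragments high. Also on chromosome 9 (105279093 to 105279775), the second lowest had a median fold of 4.72 and summits of 3 to 11 fragments.

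Merged regions were 357 to 28271 bp wide. The median was 2006 bp, with quartiles of 1531 and 2666 bp, and together they covered 14.5 Mb. Only 286 (4.39%) were narrower than 1 kb and 129 (1.98%) wider than 5 kb. For scale, the median was 3624 bp for the 181 taller regions and 1107 bp for the 11221 regions found in 4 to 7 lists.

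Most of the merged width came from the widest single peak, which spanned a median of 90.8% of its region. Peaks of the same sites were narrow in some libraries and broad in others. The median width of the widest peak per region was 604.5 and 1238 bp in FS_Ca replicates 1 and 2, 612 and 628 bp in FS_Ia, 1399 and 386 bp in PS_Ca and 948 and 1439 bp in PS_Ia. The 2 PS_Ca libraries differed most from each other, and the 3 widest values belonged to the libraries with the highest backgrounds (0.731, 0.772 and 0.862 fragments). The part of the background in the width was not tested.

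Wider sites were taller. The 1630 narrowest members, 357 to 1531 bp wide, had a median fold of 8.14, the following 1627 and 1625 members 9.75 and 11.1, and the 1628 widest, from 2666 bp up, 12.9. Over the 6510 regions Spearman's rho between width and median fold was 0.580. Within single libraries it was between 0.355 (PS_Ca replicate 2) and 0.543 (FS_Ca replicate 2). Width and height come from the same peaks, so this is a description across regions.

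**Figure D2:**
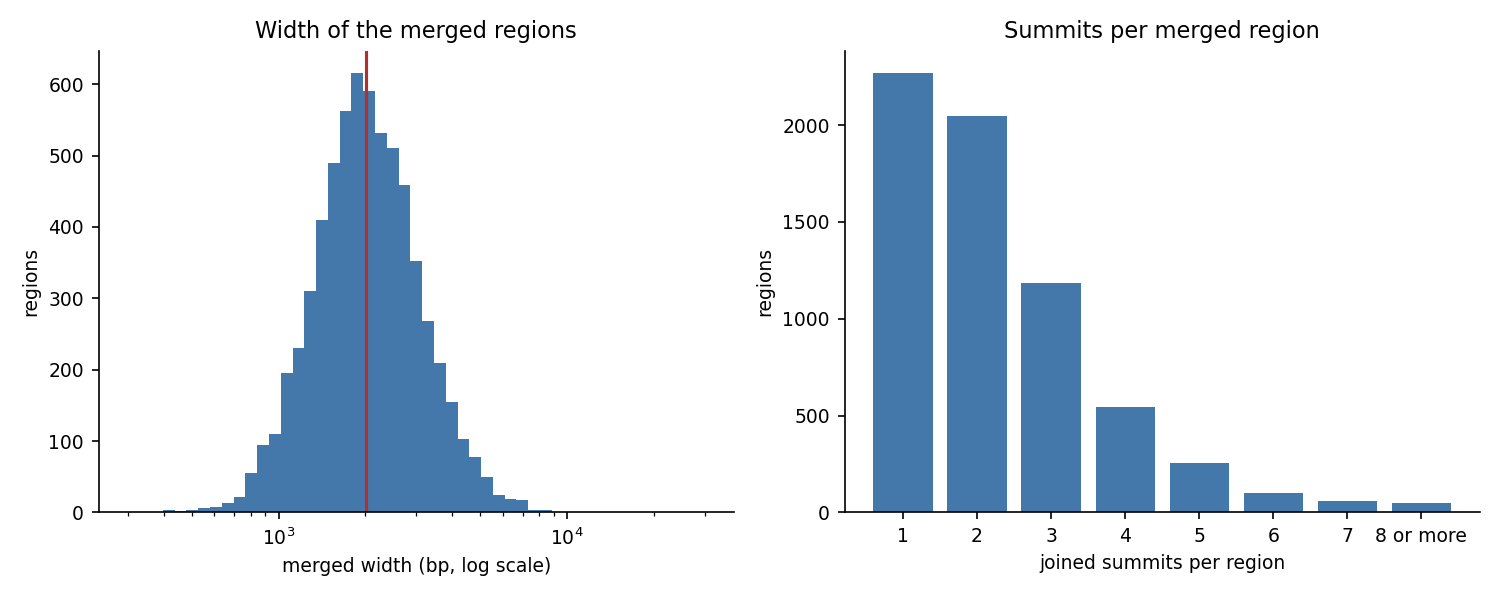
Left, number of regions by merged width in bp (log scale; red line, median of 2006 bp). Right, number of regions by joined summits, where summits of the 8 lists 200 bp apart or less count as 1; 2270 regions have 1 summit and 2049 have 2.

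Each peak in a list has 1 summit, and summits of all lists within a region were joined where they were 200 bp apart or less. By this count 2270 members (34.9%) had 1 summit, 2049 (31.5%) had 2, 1183 (18.2%) had 3 and 463 had 5 or more. The median fold rose with the count, from 9.35 at 1 summit to 10.1 at 2, 11.02 at 3 and 12.4 at 5. The 2 measures are not independent, because the fold is the highest over the peaks of a region and each peak gives a summit. Members with more summits were also wider (Spearman's rho 0.707). Taller regions had 4.30 joined summits on average and members 2.29.

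Most members nevertheless had a single position common to the 8 lists. In 5566 members (85.5%) exactly 1 joined summit was found in all 8 lists, in 17 members 2 were, and in 927 (14.2%) none was. Of all 14906 joined summits, 5600 (37.6%) were found in all 8 lists and 6278 (42.1%) in 1 list only. Joining within 100 bp lowered the share of members with exactly 1 common summit to 52.3%, and joining within 500 bp raised it to 96.7%. In single libraries the share of members with 1 peak was 72.4% in FS_Ca replicate 2 and 74.4% in PS_Ia replicate 2, which have long lists, and 90.5% in FS_Ia replicate 1 and 94.7% in PS_Ca replicate 2, the 2 shortest.

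In most members the strongest summits of all 8 lists lay within 200 bp of their median position. The distance from a library's strongest summit to the region's median position was 35 bp in the median in FS_Ia replicate 2 and 61 bp in PS_Ia replicate 1, with the other 6 libraries in between. Between any 2 libraries the median distance was 63 to 101 bp. All 8 strongest summits fell within 200 bp of the median position in 4141 members (63.6%), but within 100 bp in only 1021 (15.7%). In 237 members (3.64%) at least 1 library had its strongest summit more than 1 kb away.

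Where 1 joined summit was found, its positions in the lists spanned a median of 244 bp, with quartiles of 184 and 317 bp. The largest span was 882 bp, because summits were joined in a chain from each to the next. In members with 2 joined summits, these were a median of 803 bp apart, with quartiles of 602 and 1041 bp. For scale, the chromatin had been sheared to fragments of 200 to 700 bp.

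The widest members were also those with most summits, and the leading 3 stood close together on chromosome 11: 3052152 to 3080422 (28271 bp, 41 joined summits), 3026788 to 3048774 (21987 bp, 31 summits) and 3080652 to 3100034 (19383 bp, 28 summits). The first had folds of 17.9 and 13.3 in FS_Ca, 14.7 and 36.8 in FS_Ia, 22.0 and 23.9 in PS_Ca and 11.1 and 15.6 in PS_Ia. In fold, FS_Ia replicate 2 was highest and PS_Ia replicate 1 lowest. In percentile rank among the members of a library, PS_Ca replicate 2 was highest (99.97), just above FS_Ia replicate 2 (99.7). PS_Ia replicate 1 was lowest there too (56.8). No sequence was used, so repeats in this stretch were not looked at. What makes these 3 members so wide was not tested.

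The fourth, on chromosome 1 (85250766 to 85263945, 13180 bp), had 23 summits and folds from 7.74 to 22.5. Of the 6510 members, 12 had 10 or more summits.

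Neighbouring members were a median of 131 kb apart, end to start, with quartiles of 48.3 and 312 kb. Of the 6491 gaps, 502 (7.73%) were under 10 kb, 91 under 1 kb and 489 (7.53%) over 1 Mb. Gaps under 10 kb joined 968 members (14.9%) into 466 runs, 439 of which were pairs. The longest run held 8 members within 27.5 kb on chromosome 1 (85071426 to 85098949), and the next 5 members within 77.2 kb on chromosome 11 (3022788 to 3100034). The latter run contains the widest members described above.

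The closest neighbours nearly touched. On chromosome 1, the members at 137002153 to 137003442 and 137003450 to 137005978 were 7 bp apart, with median folds of 11.7 and 6.85. On chromosome 4, those at 136627126 to 136629771 and 136629791 to 136633174 were 19 bp apart and about equally tall, with median folds of 15.1 and 15.2. The members of the first pair thus differed more in height than those of the second.

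The longest gap, 13.1 Mb, was on chromosome 15 between the members ending at 12517692 and starting at 25646044. Peaks of any kind were sparse in it but not missing. It held 44 other merged regions, 9 of them found in 4 lists or more, whereas all of chromosome 15 held 3426 over 100 Mb. Gaps of 12.2 Mb on chromosome 4 (from 70018505 to 82187592) and 11.8 Mb on chromosome 7 (from 38927800 to 50721264) held 31 other regions each, with 8 and 9 of these in 4 lists or more. The whole chromosomes held 3995 merged regions over 153 Mb and 3759 over 149 Mb. The long gaps were thus poor in all merged regions, and not in members alone.

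Other merged regions were often close to a member, and taller ones seldom. In 5187 members (79.7%) another merged region of any kind began or ended within 5 kb. A taller region of all 8 lists lay within 10 kb of 48 members (0.737%), and the median distance to the nearest one was 4506 kb. The 181 taller regions are themselves a median of 4474 kb apart, so these distances reflect how few they are. The same shares were not computed for other regions, so they describe the members only. The median member had 5 other members within 500 kb on either side, the most crowded had 17, and 255 (3.92%) had none.

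Density was measured per Mb between the first and the last peak of a chromosome. It was 2.70 members per Mb over the 19 chromosomes and 5.01 on chromosome 11, which held 595 members. Chromosome 19 followed with 3.31, chromosome 9 with 3.15 and chromosome 4 with 3.05, while chromosomes 3 (1.87), 13 (2.07) and 12 (2.13) were lowest. Chromosome 11 also had the shortest median gap, 91.9 kb, and chromosome 13 the longest, 225 kb. The median fold of the chromosome 11 members was 10.6, against 10.3 over all members. Chromosome 11 was dense in merged regions of any kind: it held 5524, and members were 10.8% of these, near the 10.1% of all merged regions. Its density is therefore not particular to the members. This share was lowest on chromosomes 16 (7.18%) and 12 (7.82%) and highest on chromosome 18 (12.4%).

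The members of chromosome 12 ended at 114462624, before its last peak, which ended at 121221322. The last 2 lay in the flank of Igh, the locus altered in every genotype. They were at 114453661 to 114456961 and 114457842 to 114462624, with median folds of 9.12 and 14.2. Up to the end of the second, 24.3% to 87.9% of the chromosome 12 summits of FS_Ca, FS_Ia, PS_Ca replicate 2 and PS_Ia replicate 2 had a summit of PS_Ia replicate 1 within 500 bp. Past it these lists held 15 to 65 peaks each, and 0% to 4.17% of them had such a partner, and none of the regions there was found in all 8 lists. In PS_Ca replicate 1, which shares its peak-name prefix with PS_Ia replicate 1, 48.9% of 45 peaks past it had a partner. Only partners in PS_Ia replicate 1 were counted, so agreement among the other lists past this point is not known. The part of the altered Igh locus in these values was not tested.

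**Figure D3:**
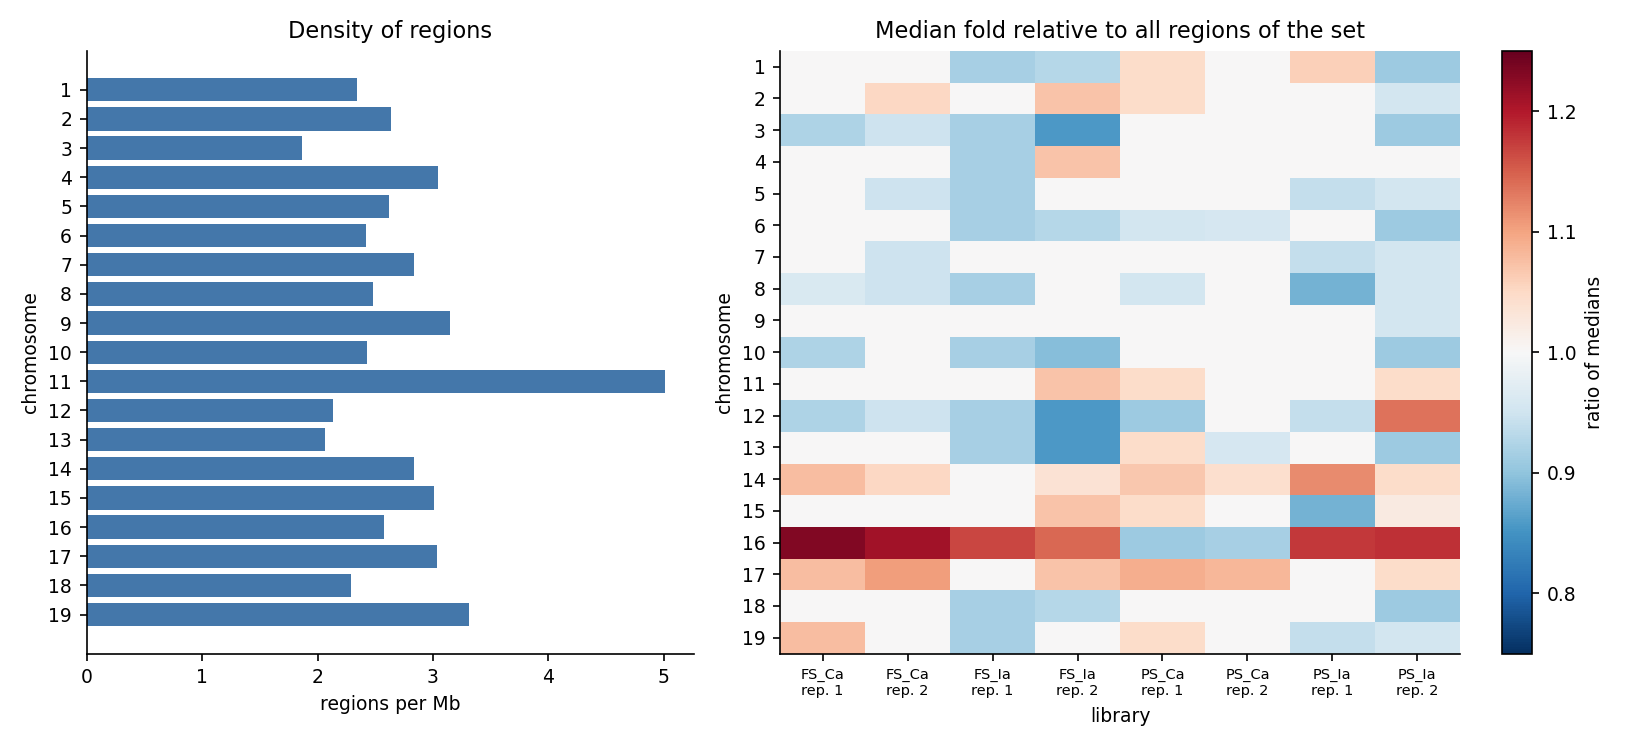
Left, members per Mb of each chromosome, where chromosome 11 reaches 5.01. Right, median fold of a chromosome's members divided by the median fold of all 6510, per library (colour, ratio of medians; white is 1); chromosome 16 is above 1.1 in 6 libraries and at 0.909 and 0.917 in both PS_Ca libraries.

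Ranks of the members were only moderately alike between libraries. Over the 6510 regions Spearman's rho of the folds had a median of 0.517 over the 28 pairs of libraries. It was highest between FS_Ca replicate 2 and PS_Ca replicate 1, at 0.680, and between FS_Ca replicate 2 and PS_Ia replicate 2, at 0.662. It was lowest between FS_Ia replicate 2 and PS_Ia replicate 1, at 0.206, though these share the Ia orientation. The pairs share their regions and differ in depth, so the values are descriptions.

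Pairs of 1 genotype did not stand out. Those 4 pairs had rho of 0.437 (PS_Ia) to 0.540 (PS_Ca), with a median of 0.524. Pairs of the same orientation but different switch length had a median of 0.521 and a range of 0.206 to 0.680, and pairs of the same switch length but different orientation a median of 0.521 and a range of 0.403 to 0.621. Pairs that shared neither had a median of 0.474 and a range of 0.409 to 0.662. The libraries with the lowest median rho to the others were PS_Ia replicate 1 (0.441), FS_Ia replicate 2 (0.456) and PS_Ca replicate 2 (0.463). The last has the shortest list, the other 2 do not. Computed within each chromosome, rho had a median over pairs of 0.511.

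**Figure D4:**
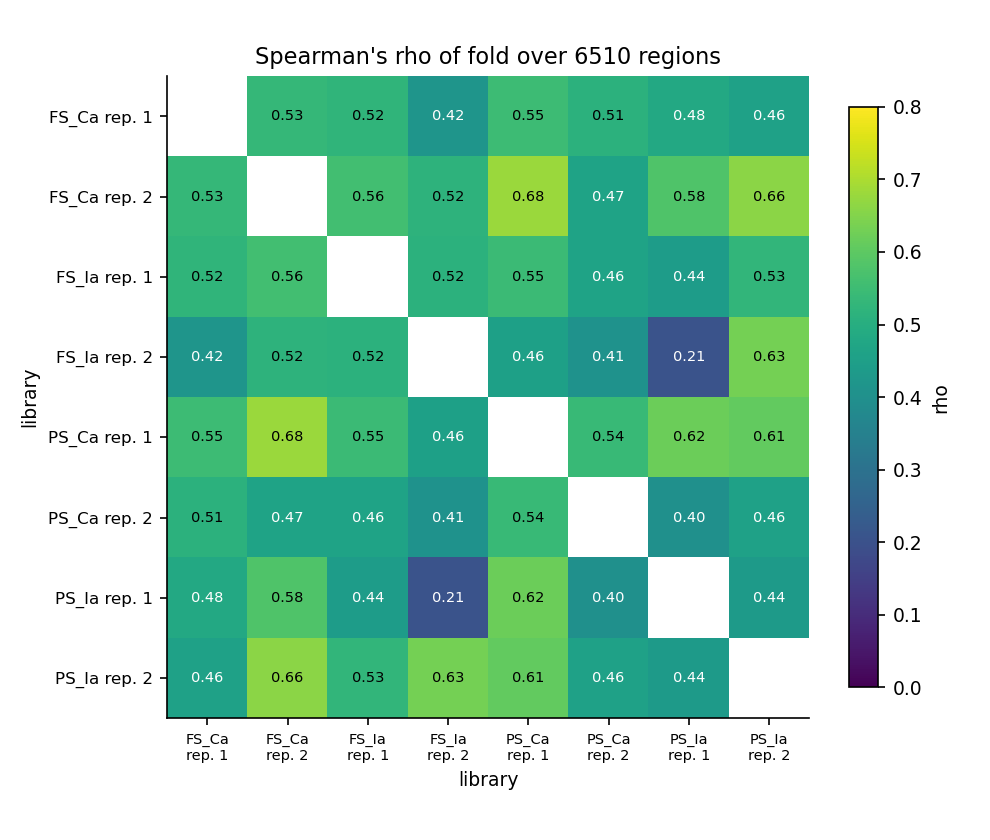
Spearman's rho of the fold over the 6510 regions for each pair of the 8 libraries (colour and number, rho; both axes, libraries). Values run from 0.21 (FS_Ia replicate 2 with PS_Ia replicate 1) to 0.68 (FS_Ca replicate 2 with PS_Ca replicate 1), and pairs of 1 genotype do not stand out.

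Few sites kept their place in the order. When each library's members were ranked from 0 to 100, the percentile of the median member ranged over 55.0 points between its lowest and its highest library. Only 178 members (2.73%) were above the 75th percentile in all 8 libraries, and 58 (0.891%) were in the lowest 25 percentiles in all 8. On the other hand 1815 members (27.9%) were above the 75th percentile in some library and in the lowest 25 in some other.

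The steadiest member, on chromosome 1 (196642317 to 196644023), had 1 joined summit and a median fold of 14.6. Its percentiles were 82.8 and 84.0 in FS_Ca, 76.7 and 79.4 in FS_Ia, 86.0 and 80.1 in PS_Ca and 75.6 and 85.8 in PS_Ia. It held a place in the upper part of the order in every library, and the genotypes overlapped. On chromosome 14 (120796755 to 120799275), another steady and taller member had a median fold of 18.4 and percentiles from 91.4 to 97.1.

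The most variable members were 2 narrow neighbours on chromosome 4, at 45849707 to 45850180 (474 bp) and 45853891 to 45854642 (752 bp). The second had folds of 31.6 and 17.3 in FS_Ca, 11.6 and 40.1 in FS_Ia, 7.34 and 18.3 in PS_Ca and 4.93 and 24.7 in PS_Ia. The first had 33.7 and 12.7 in FS_Ca, 14.7 and 23.7 in FS_Ia, 6.21 and 15.1 in PS_Ca and 4.93 and 24.7 in PS_Ia. In both, the PS replicate 1 libraries were lowest and the other libraries of the same genotypes were higher, so the split runs within genotypes. The peak names of those PS replicate 1 lists carry a prefix of their own, shared by no other library.

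Height and crowding of members were weakly related in some libraries. Spearman's rho between fold and the number of members within 500 kb was 0.245 in PS_Ia replicate 2, 0.210 in FS_Ia replicate 2 and 0.169 in FS_Ca replicate 2. In the remaining 5 libraries it was 0.0941 or less. These are descriptions over 6510 regions.

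Whether single sites differed by genotype was tested on ranks, because the fold of a list is on that list's own scale. The regions had been kept for a peak in all 8 lists and for their median fold, so a site lost in a genotype could not enter, and the counts of calls hold only for sites found in every library. The ranks of the folds of the 6691 regions of all 8 lists were turned into normal scores within each library (1 unit is 1 SD of a standard normal distribution). Orientation, switch length and their interaction were fitted with limma. No member was called for orientation at an adjusted p under 0.05 (0 of 6510), as no region was among all tested (0%), and the lowest adjusted p was 0.9997. At an unadjusted p under 0.05 there were 285 members (4.38%), 132 higher and 153 lower in Ia lines, beside 4.45% of all regions tested.

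Switch length likewise gave 0 members and 0% of all regions by limma with Benjamini-Hochberg adjustment, with a lowest adjusted p of 0.616. Unadjusted, 342 members (5.25%) were under 0.05, 163 higher and 179 lower in PS lines, beside 5.43% of all regions. The interaction gave 0 members and 0% of all regions, with a lowest adjusted p of 0.352. Unadjusted, 308 members (4.73%) were under 0.05, beside 5.04% of all. The median standard error of a member's difference was 0.45 units for either factor and 0.91 for the interaction, which sets the size of shift that these libraries can show.

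The members with the lowest p are given as values. For orientation this was a member on chromosome 16 (36709367 to 36712309), with folds of 5.74 and 8.67 in FS_Ca, 13.9 and 13.9 in FS_Ia, 9.59 and 6.93 in PS_Ca and 27.7 and 13.4 in PS_Ia. All 4 Ia values were above all 4 Ca values, a difference of 1.84 units (SE 0.48, limma adjusted p = 0.9997). Members of chromosome 16 shifted together, as described below, and their median orientation difference was 0.32 units, of the same sign. In the other direction a member on chromosome 15 (28110841 to 28112650) had folds of 19.4 and 10.98 in FS_Ca, 9.28 and 13.9 in FS_Ia, 20.9 and 20.8 in PS_Ca and 6.78 and 8.06 in PS_Ia. Its Ca and Ia values overlapped in the FS lines, and the difference was -1.87 units (SE 0.51, limma adjusted p = 0.9997).

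For switch length, a member on chromosome 6 (145288352 to 145292293) had folds of 6.46 and 8.67 in FS_Ca, 5.42 and 5.72 in FS_Ia, 15.2 and 11.3 in PS_Ca and 14.8 and 11.8 in PS_Ia. The 4 PS values were above the 4 FS values, a difference of 1.75 units (SE 0.43, limma adjusted p = 0.616). Lower in PS lines was a member on chromosome 16 (18106725 to 18109793), with folds of 15.8 and 22.5 in FS_Ca, 21.7 and 34.3 in FS_Ia, 11.9 and 8.82 in PS_Ca and 9.25 and 17.7 in PS_Ia. The FS and PS folds overlapped in 1 library, though the percentile ranks did not, and the difference was -1.69 units (SE 0.38, limma adjusted p = 0.616). Over all chromosome 16 members the median difference for switch length was -0.35 units, of the same sign. FS and PS lists never share a peak-name prefix, so prefix and length of the switch regions cannot be told apart.

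For the interaction, the lowest p belonged to a 608 bp member on chromosome 17 (13498742 to 13499349). Its folds were 10.0 and 5.78 in FS_Ca, 16.2 and 41.7 in FS_Ia, 20.3 and 22.7 in PS_Ca and 8.01 and 19.3 in PS_Ia. Ia was above Ca in the FS lines and below it in the PS lines, with no overlap of folds in either; in percentile ranks the PS libraries overlapped. The interaction was -4.35 units (SE 0.99, limma adjusted p = 0.352). Without PS_Ia replicate 2 it was -5.39 units and the only member called in any setting, with a limma adjusted p of 0.0200. Its spread between libraries was among the 6 largest of all members.

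On chromosome 16 the members of a library stood high or low together. This was noticed in the data and has no test of its own. Relative to the median fold of all members in the same library, its 245 members stood at 1.23 and 1.21 in FS_Ca, 1.17 and 1.14 in FS_Ia, 0.909 and 0.917 in PS_Ca and 1.18 and 1.18 in PS_Ia. Both PS_Ca libraries were below 1 and the other 6 above, with no overlap. On the other chromosomes this ratio lay between 0.857 and 1.14 in every library. The highest of these, on chromosome 12 in PS_Ia replicate 2, about equalled the chromosome 16 value of FS_Ia replicate 2, and the low PS_Ca values lay within that range. Peak lists carry no input signal, so Rad21 height and the number of copies of a chromosome cannot be told apart in these ratios.

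In percentile ranks, the median chromosome 16 member stood at 38.3 and 41.3 in the PS_Ca libraries and at 60.5 (FS_Ia replicate 2) to 72.4 (FS_Ca replicate 1) in the rest. Both PS_Ca libraries were below all 6 others in 63 of the 245 members (25.7%), against 3.69% of all 6510 and 2.83% of members elsewhere. The reverse was true of 0 members there and of 3.07% of all. An unadjusted limma p under 0.05 was found for orientation in 25 of the 245 (10.2%), beside 2.201% to 9.27% on the other chromosomes. For switch length it was found in 31 (12.7%, beside 2.50% to 7.06%) and for the interaction in 48 (19.6%, beside 2.05% to 6.43%). No single member passed the adjustment in any of the 3 fits.

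**Figure D5:**
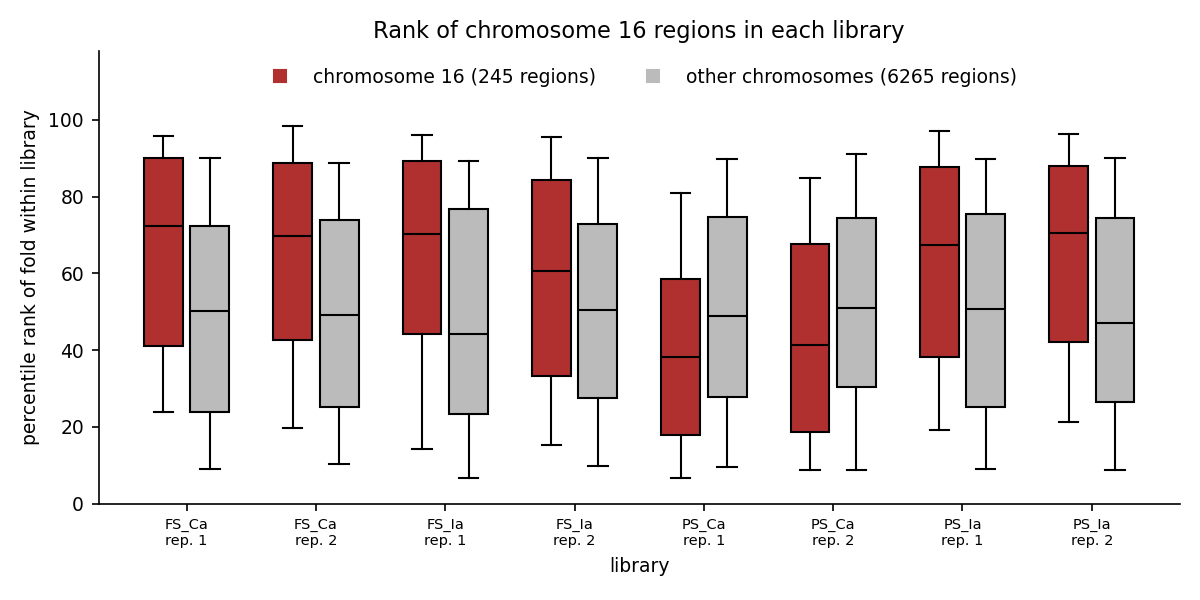
Percentile rank of the fold within each library for the 245 members on chromosome 16 (red) and the 6265 on other chromosomes (grey); boxes are quartiles with the median, whiskers the 10th and 90th percentiles. The chromosome 16 median is 38.3 and 41.3 in PS_Ca and 60.5 to 72.4 in the other 6 libraries.

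The shift ran along the chromosome where members were frequent. In the 7 windows of 10 Mb on chromosome 16 with at least 15 members, the ratio was 0.833 to 1.00 in the PS_Ca libraries and 1.05 to 1.47 in FS_Ca, FS_Ia replicate 1 and PS_Ia. FS_Ia replicate 2 varied more along it, from 0.714 to 1.64. Both PS_Ca libraries were at or below 1 in each of the 7. The windows from 60000001 to 90000000 held only 2, 4 and 6 members and were not among them. At 60000001 to 70000000 FS_Ia replicate 2 and PS_Ia replicate 2 were below both PS_Ca libraries. At 70000001 to 80000000 PS_Ca stood at 1.11 and 1.04, above both FS_Ia libraries and PS_Ia replicate 2. At 80000001 to 90000000 the PS_Ca libraries were lowest.

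A search of all 178 windows of 10 Mb with at least 15 members, chosen after the values were seen, found 10 in which the scores of a library lay more than 0.6 units from the region medians. Of these, 3 were on chromosome 16, where PS_Ca replicate 1 was low in each and PS_Ca replicate 2 also passed the limit in 1. On chromosome 12 there were 3 in which PS_Ia replicate 2 was high, for example at 80000001 to 90000000, where its ratio was 1.27 and the other 7 libraries had 0.917 to 1.05. At 100000001 to 110000000 it had 1.11 and the others 0.833 to 0.917. At 110000001 to 120000000 its ratio of 1.34 was not the highest, since FS_Ia replicate 2 had 1.39. At the end of chromosome 15 (from 100000001), PS_Ia replicate 1 had a ratio of 0.824 over 27 members, and the other 7 libraries 1.00 to 1.64.

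The largest deviation was on chromosome 5 (10000001 to 20000000), where PS_Ca replicate 2 had a ratio of 1.5 over 15 members and the other 7 libraries 0.591 to 0.923. The lowest of these, PS_Ia replicate 2, passed the limit in the other direction. The remaining windows, on chromosomes 6 (from 140000001) and 13 (from 110000001), had PS_Ia replicate 1 high, with ratios of 1.12 and 1.35. In the 7 windows off chromosome 16, the libraries past the limit were never both of 1 genotype. Here too the number of copies of a stretch and Rad21 height cannot be told apart.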

How the data were processed

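Per the labels' protocols, cross-linked chromatin was sheared, pulled down with a Rad21 antibody, tagmented by Tn5 while on beads and read from both ends. The submitters' processing notes list MACS2 2.2.7.1, deepTools 3.5.1, Bowtie2 2.4.4, SAMtools 1.15.1 and mm9. Their settings and any control are not given here. A list of 10 columns was deposited per library. The authors' fold (a ratio at the summit), −log10 p and q and score are values within a list.

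The fold was the authors' ratio; (height + 1) over (background + 1) gave whole heights within 0.01 in each list, from which summit heights and backgrounds were read. Peaks were merged at 1 bp overlap. Ranks within a library over the 6691 regions of all 8 lists became normal scores, which limma 3.58.1 (R 4.3.3, eBayes with trend, Benjamini-Hochberg) fitted on orientation and switch length, and with their product for the interaction. Tests had to use ranks since folds of different lists are not on 1 scale. Depth in reads is unknown, so counting error is given only from summit heights. Widths, summits, gaps, densities and correlations have no test. Software was matplotlib 3.10.9, scipy 1.17.1, pandas 2.3.3 and numpy 2.4.6 under Python 3.11.15, and the code was tested on simulated data.

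The members, tests and alternatives were chosen with earlier results of these data known. Named were the members highest, lowest, widest, with most summits, steadiest, most variable, closest and farthest apart, those beside the limit and those with the lowest p per direction, of which the leading ones are given. Alternatives were a stricter threshold, lists of equal length, other merging, other limits, chromosome parts left out, each library left out, log2 folds, limma without trend, prefix sets and replicate number as a block. Replicate 1 minus replicate 2 correlated between genotypes from -0.20 to 0.33, not above 0.1 in every pair, so the numbers were not taken as pairing the libraries, although in the PS lines each number has its own peak-name prefix.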

Additional observations from a re-analysis of the deposited data

How the results depend on the processing

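With only peaks of −log10 q of at least 5, 3858 regions met the rule; their median gap was 207 kb, the highest density 3.07 per Mb and the median number of summits 1. With lists cut to the length of the shortest, 11288 peaks, there were 4233 regions, again with a median of 1 summit. Regions built from summits ± 100 bp had a median width of 437 bp and 1 summit, which their construction fixes. A median-fold limit of 15, which leaves a narrower range of heights, gave a median rho of 0.42. The part of that range in the lower rho was not tested. Median rho was 0.435 with −log10 q of at least 5 and 0.444 with lists cut to the shortest. The other settings kept these values within 1.5 times of the reported ones, or for rho within its SD of 0.0957 over pairs. Leaving out 1 library at a time gave 6556 to 8176 regions. Orientation and switch length gave 0 members in every setting. The interaction gave 0 to 1 over the settings that left out 1 library, the 1 being the chromosome 17 member without PS_Ia replicate 2, and 0 in the others. With the replicate block (replicate number as a term), 0 members were called in each of the 3 fits, so that block changed no call. In the PS lines the replicate number coincides with the peak-name prefix, so there the block also stands for the prefix. Of 287 recomputed differences of single members, 286 kept their sign and side of the threshold, that chromosome 17 member being the exception. These members were picked for the lowest p in the same libraries, so that count was largely set in advance and is no support for the differences. Added after seeing the data, the gap on chromosome 16 between the lowest other library and the highest PS_Ca library, 0.226 in relative fold, stayed above 0 in every setting, at 0.150 to 0.250. Summits of 3 to 11 fragments in the 2 lowest members limit what their ranks can show.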
